A study of Mus musculus with 8 samples.

Results

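The genes described here are 10 sperm surface protein maturation factors, taken by symbol from the 19906 genes of the deposited table. They are the endoplasmic reticulum (ER) chaperones Clgn, Calr3, Calr and Canx, the disulfide isomerase-like Pdilt, the enzymes Ace and Tpst2, and the LY6-domain proteins Tex101, Ly6k and Lypd4, which carry a glycosylphosphatidylinositol (GPI) anchor. All 10 were in the table and all 10 had enough counts to be tested. RNA came from whole testes of mice aged 2 months: 4 mice were labelled Tmem232 knockout (Tmem232-/-) and 4 wild type (Tmem232+/+), with 1 library per mouse. The knockout line was made with CRISPR-Cas9 in fertilized C57BL/6 oocytes as a germline deletion of part of the gene and was bought from a research institute. TMEM232 is a testis-enriched protein with predicted transmembrane segments, and the comparison asks how the testis transcriptome differs when its gene is deleted.

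ADAM3 is a sperm membrane protein that belongs to the ADAM family of metalloprotease-like proteins. It is folded in the ER of spermatogenic cells, travels to the surface and is processed, and mouse sperm that lack mature ADAM3 fail to pass from the uterus into the oviduct. Deletion of any of several of the genes described here (among them Clgn, Calr3, Pdilt, testis Ace, Tpst2, Tex101, Ly6k and Lypd4) leaves males infertile or nearly so with this same defect, whereas Calr and Canx are the general chaperones of the same ER cycle that are used in all tissues.

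The total count was between 15428421 and 16350871 per library. Values are given as counts per 1000000 (CPM) after TMM normalization, which scales each library to the others, and differences as log2 fold changes of Tmem232-/- over Tmem232+/+ from the quasi-likelihood test of edgeR, with p-values adjusted over 15787 tested genes by the Benjamini-Hochberg method. Tmem232 itself was counted at 148, 132, 123 and 122 CPM in the libraries labelled Tmem232-/- and at 111, 106, 108 and 109.9 CPM in those labelled Tmem232+/+. Its count was thus higher in every library labelled as knockout (log2 fold change 0.27, SE 0.07, adjusted p = 0.034 in edgeR), and the call was lost in 4 of the 8 fits that left out 1 library. The deposited value covers the whole gene, of which the deletion removes a part, so it does not check the genotypes, and libraries are called by their label throughout. Of the replicates, Tmem232+/+ replicate 3 stood apart most from its own group, with a median absolute log2 deviation over all tested genes of 0.153 against 0.063 to 0.118 in the other libraries.

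Calr3, Pdilt and Ace rose by more than 2-fold in the libraries labelled Tmem232-/-, Tex101 and Ly6k were called lower by 18.1% and 18.2% of the wild-type mean, and the other 5 genes did not pass the test. The 3 higher genes are to be read against 10.3% of all tested genes called higher and 5.23% called higher by at least 2-fold. The 2 lower genes are to be read against 1.46% of all tested genes called lower, and this count was not stable. It was 0 or 1 in each of the 8 fits that left out 1 library, and 0 with DESeq2 size factors in edgeR and with no filter on low counts. In 6 of the 10 genes the values of the groups did not overlap, which was the case for 18.7% of all tested genes. The log2 fold changes of the 5 genes that did not pass ran from -0.18 to 0.15. The median log2 fold change of the 10 was 0.01, beside -0.05 over all tested genes.

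**Figure D1:**
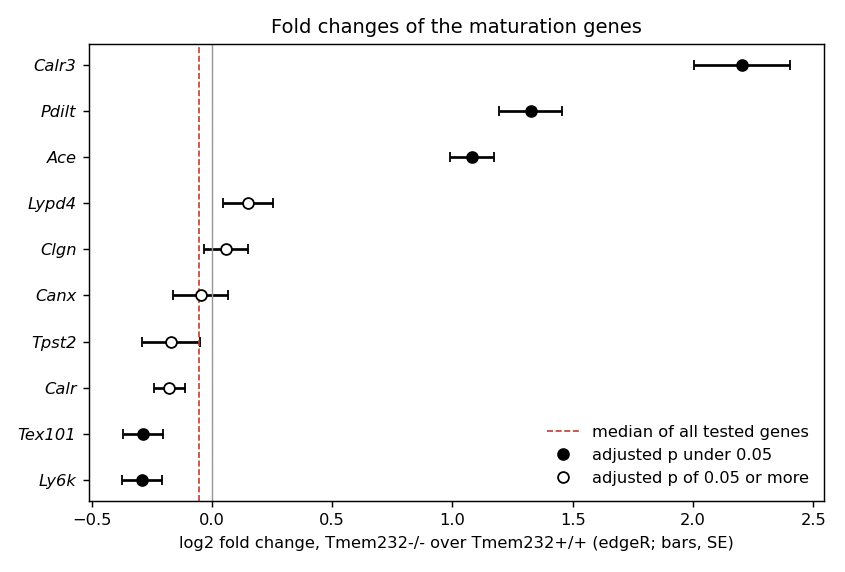
The log2 fold change (Tmem232-/- over Tmem232+/+) of each of the 10 genes is plotted with its SE, filled where the adjusted p was under 0.05, and the dashed line marks the median of all tested genes. Calr3, Pdilt and Ace lie above 1, and the remaining 7 genes lie between -0.29 and 0.15.

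Whole testis RNA mixes all cell types, and fewer cells of a type cannot be told apart from less RNA per cell. Markers of the cell types moved with the groups. All 9 tested markers of round spermatids and all 10 of elongating spermatids were called higher, with median log2 fold changes of 1.08 and 2.29. The summed level of the round spermatid markers was 855 to 1076 CPM in the libraries labelled Tmem232-/- and 393 to 569 CPM in those labelled Tmem232+/+, and that of the elongating spermatid markers was 1338 to 2224 CPM against 340.1 to 685 CPM. Of 8 spermatogonial markers 3 were called lower (Sall4, Stra8 and Uchl1), with summed levels of 193 to 211 CPM against 233 to 261 CPM. The other 5 did not pass, and 1 of them, Gfra1, had a positive log2 fold change (0.42, adjusted p = 0.101 in edgeR). Of 9 spermatocyte markers 1 was called lower (Dmc1), with overlapping sums of 2229.7 to 2946 CPM against 2602 to 2896 CPM. Of 5 peritubular myoid markers, Acta2 and Myh11 were called lower (summed level 197 to 236 CPM against 250.2 to 296 CPM). None of the tested markers of Sertoli cells (8), endothelial cells (8) and macrophages (7) passed the test, and their summed levels overlapped between the groups. None of 8 Leydig cell markers passed either, but 7 of the 8 had positive log2 fold changes, with a median of 0.41 and summed levels of 481 to 711 CPM against 308 to 540.2 CPM. Among them Lhcgr was at 0.95 (adjusted p = 0.051 in edgeR), and Cyp17a1 (0.82, adjusted p = 0.125) and Star (0.34, adjusted p = 0.072) had values that did not overlap between the groups. For Cyp17a1, Tmem232+/+ replicate 1 was at 22.1 CPM and the other wild-type libraries were between 77.5 and 87.0 CPM. Of the epididymal markers Crisp1 and Rnase10 had enough counts to be tested, and neither passed. The sum of the 5 in the table was 5.63 to 12.9 CPM against 5.93 to 39.2 CPM. Crisp1 was uneven between libraries, at 27.0 CPM in Tmem232+/+ replicate 1, 9.94 CPM in Tmem232+/+ replicate 3 and 5.52 CPM in Tmem232-/- replicate 1, but between 0 and 0.86 CPM in the other 5. No marker was at 0 in all libraries. The part of these shifts in the results that follow was not tested.

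The promoters of the 3 genes that rose are shown because they moved together, and the Ace promoter because it separates the testis form from the somatic form. Each is 300 bases from RefSeq (GRCm38.p6), from 250 bases before to 50 bases after an annotated start, read 5′ to 3′ on the strand of the gene. Capitals mark matches to letters of the cAMP response element (CRE), a sequence bound by the CREB and CREM factors, CREM being a main activator of genes in round spermatids. The letters searched on both strands were the whole CRE, TGACGTCA, its single-letter variant TGAGGTCA (TGACCTCA on the other strand), which was added after the sequences had been seen, and the shorter TGACG, which the whole CRE also contains, and which reads as CGTCA on the other strand.
Calr3 (chr8:72443729-72444028, minus strand): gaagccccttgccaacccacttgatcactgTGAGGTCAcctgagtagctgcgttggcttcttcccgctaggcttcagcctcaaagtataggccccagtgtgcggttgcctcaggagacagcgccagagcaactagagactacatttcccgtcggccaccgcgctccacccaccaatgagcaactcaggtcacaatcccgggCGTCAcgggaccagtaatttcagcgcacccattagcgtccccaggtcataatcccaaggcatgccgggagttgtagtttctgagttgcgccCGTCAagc
Ace, internal start (chr11:105974939-105975238, plus strand): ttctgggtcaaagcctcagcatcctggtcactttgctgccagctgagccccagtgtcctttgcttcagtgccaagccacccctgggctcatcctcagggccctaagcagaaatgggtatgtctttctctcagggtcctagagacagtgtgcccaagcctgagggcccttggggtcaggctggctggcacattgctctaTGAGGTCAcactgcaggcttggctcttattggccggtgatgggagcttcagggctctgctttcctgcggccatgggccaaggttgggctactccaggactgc
Pdilt (chr7:119523433-119523732, minus strand): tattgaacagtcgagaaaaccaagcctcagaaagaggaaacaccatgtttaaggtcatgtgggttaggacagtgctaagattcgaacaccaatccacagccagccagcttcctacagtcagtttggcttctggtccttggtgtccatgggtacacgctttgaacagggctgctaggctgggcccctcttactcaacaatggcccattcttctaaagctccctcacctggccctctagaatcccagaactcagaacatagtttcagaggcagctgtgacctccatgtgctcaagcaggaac

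None of the promoters of the 8 genes with an entry (Clgn and Ly6k have none) held the whole CRE, which 1.79% of all 32851 promoters of this length held. The variant was present in 2.17% of all promoters. As it was added after the sequences had been seen, this share does not test its presence in these genes. The variant stood 220 bases before the start of Calr3, 52 bases before the internal start of Ace and 143 bases before the start of Lypd4. The shorter letters, held by 20.81% of all promoters, occurred 49 bases before and 43 bases after the Calr3 start, and occurred 2 times each in the promoters of Canx and Tpst2 (the first promoter of the latter). The promoters of Pdilt, Calr and Tex101 and the first promoter of Ace held none of the letters, nor did the further promoters listed for Calr3 and Tpst2. A match is a description of letters, and its absence says only that they are not in this window.

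The ER lectin chaperones bind glycoproteins while they fold. Calr3 (calreticulin-3, Entrez 73316, chr8:72424176-72443870, minus strand; coordinates here and below are those of GENCODE M21 on GRCm38) is the testis-specific relative of calreticulin. It was measured at 32.5, 24.5, 18.9 and 25.9 CPM in the libraries labelled Tmem232-/- and at 5.73, 3.81, 7.22 and 5.28 CPM in those labelled Tmem232+/+. The lowest value with the knockout label was well over the highest with the wild-type label, and the 4 knockout libraries differed among themselves more than the wild-type ones did in absolute terms. The mean was 25.4 ± 5.60 CPM (SD, n = 4) against 5.51 ± 1.40 CPM (SD, n = 4). The log2 fold change was 2.21 (SE 0.20, 4.61-fold, adjusted p = 3.6e-05 in edgeR). A two-sided exact permutation test over the 70 arrangements of the 8 libraries gave p = 0.029, the smallest it can give. The counts behind these values were low, from 63 to 488 per library.

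Clgn (calmegin, Entrez 12745, chr8:83389867-83428552, plus strand), the testis-specific relative of calnexin, did not pass the test. Its levels were 1252, 1258, 1354 and 1080.0 CPM in the libraries labelled Tmem232-/- and 1309, 1194, 1029 and 1216 CPM in those labelled Tmem232+/+. The ranges overlapped almost fully. Its log2 fold change was 0.06 (SE 0.09, adjusted p = 0.73 in edgeR). With 1 library left out it ran from 0.01 (without Tmem232-/- replicate 3) to 0.15 (without Tmem232+/+ replicate 1), with 0.03 without Tmem232+/+ replicate 3 and 0.13 without Tmem232-/- replicate 4.

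Canx (calnexin, Entrez 12330, chr11:50293961-50325673, minus strand), its general counterpart in the ER membrane, was measured at 338, 360.0, 375 and 286 CPM against 374, 384, 278 and 369 CPM. Tmem232-/- replicate 4 and Tmem232+/+ replicate 3 were the low libraries for this gene, 1 in each group. Its log2 fold change was -0.05 (SE 0.11, adjusted p = 0.83 in edgeR), and without Tmem232-/- replicate 4 it was 0.04.

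Calr (calreticulin, Entrez 12317, chr8:84841850-84846934, minus strand), the general soluble chaperone, lay at 1073, 958, 1038 and 1034 CPM in the libraries labelled Tmem232-/- and at 1128, 1139.7, 1238 and 1131 CPM in those labelled Tmem232+/+. Every knockout-labelled library was under every wild-type one, yet the difference was 11.5% of the wild-type mean and did not pass the test over all genes. In edgeR the log2 fold change was -0.18 (SE 0.07, adjusted p = 0.12), while the exact permutation test on this gene alone gave p = 0.029. Without Tmem232+/+ replicate 3, the highest library, it was -0.11.

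**Figure D2:**
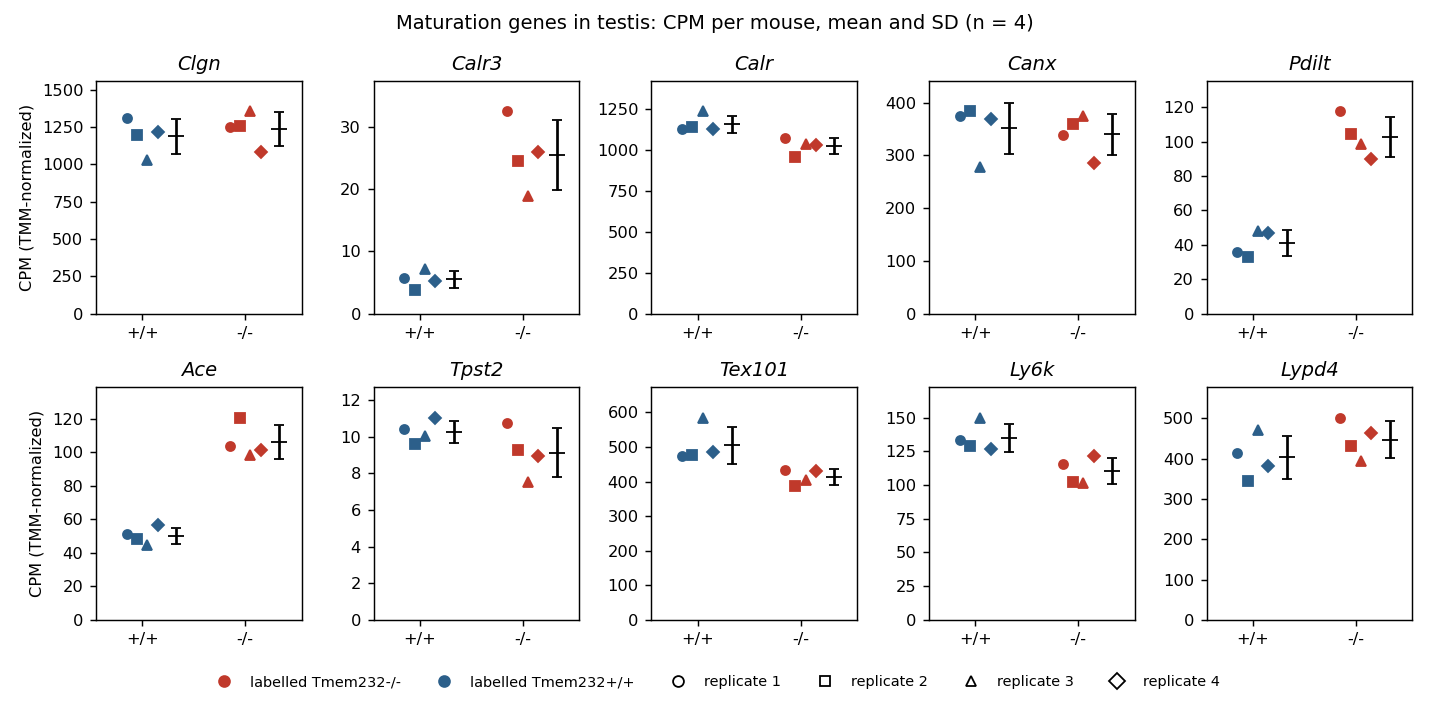
Each panel shows 1 gene with the TMM-normalized CPM of every mouse, blue for libraries labelled Tmem232+/+ and red for Tmem232-/-, marker shape for the replicate number, and the mean with its SD (n = 4) in black; every axis starts at 0. The groups are apart for Calr3, Calr, Pdilt, Ace, Tex101 and Ly6k and overlap for Clgn, Canx, Tpst2 and Lypd4.

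Pdilt (Entrez 71830, chr7:119486587-119523489, minus strand) is a testis-specific member of the protein disulfide isomerase family that works with calmegin and calreticulin-3 on ADAM3. It was measured at 118, 105, 98.9 and 90.0 CPM in the libraries labelled Tmem232-/-. In those labelled Tmem232+/+ it was at 35.6, 33.1, 48.1 and 47.2 CPM. The lowest knockout-labelled library was far over the highest of the other group. The mean was 103 ± 11.6 CPM against 41.0 ± 7.76 CPM (SD, n = 4 each), a log2 fold change of 1.33 (SE 0.13, 2.51-fold, adjusted p = 5.3e-05 in edgeR). The exact permutation test gave p = 0.029. Of 2281 exon bases, 104 are shared with Acsm5 and 201 with Gm37518, both on the opposite strand. The strand setting of the counting is not given in the sources used here, so reads of such partners cannot be told apart. Acsm5 had a mean count of 5.6. The deposited table places Pdilt, Calr3 and Canx on the plus strand, whereas GENCODE has all 3 on the minus strand, and whether this touched their counts was not tested.

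Ace (angiotensin-converting enzyme, Entrez 11421, chr11:105967945-105989964, plus strand) gives a long somatic form and a short testis form made in spermatids. The testis form begins at an internal start, which RefSeq places at position 105975189, in intron 12 of the 25-exon GENCODE transcript and 7241 bases after the somatic start. The deposited count covers the whole gene and does not separate the forms. Levels were 104, 121, 98.3 and 101 CPM in the libraries labelled Tmem232-/- and 51.3, 48.0, 44.7 and 56.4 CPM in those labelled Tmem232+/+. Replicate 2 was the highest of the knockout-labelled libraries, and the groups were widely apart. The mean was 106 ± 10.2 CPM against 50.1 ± 5.02 CPM (SD, n = 4 each). The log2 fold change was 1.08 (SE 0.09, 2.12-fold, adjusted p = 2.7e-05 in edgeR), and the exact permutation test gave p = 0.029. The antisense gene Gm11651 covers 295 of 5287 exon bases of Ace.

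Tpst2 (Entrez 22022, chr5:112276691-112315361, plus strand), the Golgi enzyme that adds sulfate to tyrosines of secreted and membrane proteins, did not pass the test. It was measured at 10.8, 9.29, 7.53 and 8.98 CPM in the libraries labelled Tmem232-/- and at 10.4, 9.63, 10.1 and 11.1 CPM in those labelled Tmem232+/+. Tmem232-/- replicate 1 lay among the wild-type values and the other 3 lay under them. The log2 fold change was -0.17 (SE 0.12, adjusted p = 0.41 in edgeR) on counts of 119 to 180 per library. It was -0.09 without Tmem232-/- replicate 3 and -0.26 without Tmem232-/- replicate 1.

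The GPI-anchored LY6 proteins accompany ADAM3 on the germ cell surface. Tex101 (Entrez 56746, chr7:24668007-24676675, minus strand), which is shed from sperm by testis ACE during maturation, was measured at 434, 386, 405 and 430.4 CPM in the libraries labelled Tmem232-/-. It was at 474, 476, 585 and 485 CPM in those labelled Tmem232+/+. The highest knockout-labelled value was under the lowest wild-type one, and Tmem232+/+ replicate 3 was far over the other 3 wild-type libraries. The mean was 414 ± 22.4 CPM against 505 ± 53.7 CPM (SD, n = 4 each). It fell by 0.29 on the log2 scale (SE 0.08, adjusted p = 0.045 in edgeR), or 18.1% of the wild-type mean, with p = 0.029 in the exact permutation test. Under each of the 8 fits that left out 1 library it was no longer called, and without Tmem232+/+ replicate 3 the log2 fold change was -0.18.

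Ly6k (Entrez 76486, chr15:74796874-74799986, minus strand), a binding partner of TEX101, was measured at 116, 102, 101 and 121 CPM against 133, 129, 150.0 and 127 CPM. The order of the groups was the same as for Tex101, with Tmem232+/+ replicate 3 again the highest and no overlap. The mean was 110.2 ± 9.84 CPM against 135 ± 10.5 CPM (SD, n = 4 each). It fell by 0.29 on the log2 scale (SE 0.08, adjusted p = 0.043 in edgeR), or 18.2% of the wild-type mean, with p = 0.029 in the exact permutation test. The call was lost in 7 of the 8 fits that left out 1 library and held only without Tmem232-/- replicate 4. The antisense gene Gm17189 covers 395 of the 829 exon bases of Ly6k, so the count may hold reads of either gene.

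Lypd4 (Entrez 232973, chr7:24864620-24869941, minus strand), the other LY6 protein needed for passage into the oviduct, was measured at 502, 430.4, 394 and 463 CPM against 415, 346, 471 and 382 CPM. The values overlapped, with Tmem232+/+ replicates 1 and 3 within the range of the knockout-labelled libraries. A log2 fold change of 0.15 was estimated (SE 0.10, adjusted p = 0.41 in edgeR). It was 0.26 without Tmem232+/+ replicate 3, 0.08 without Tmem232+/+ replicate 2 and 0.09 without Tmem232-/- replicate 1.

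To compare levels between genes, the deposited FPKM values (fragments per kilobase of transcript, scaled to the library) were used, which divide by transcript length. In the libraries labelled Tmem232+/+ Calr had the highest level, 663 ± 38.2 FPKM (SD, n = 4), with 99.7% of genes in the table below it. Tex101 followed at 581 ± 66.9 FPKM, and its range overlapped that of Calr. Lypd4 (432 ± 57.1 FPKM) and Clgn (352 ± 33.9 FPKM) also overlapped each other, and then came Ly6k at 227 ± 18.7 FPKM and Canx at 86.3 ± 11.7 FPKM. The genes that rose were among the lowest of the 10 with the wild-type label. Pdilt was at 21.4 ± 4.30 FPKM, with 76.3% of genes in the table below it, and Ace at 14.8 ± 1.60 FPKM, with 69.6% below it. Tpst2 was at 6.39 ± 0.32 FPKM and Calr3 was the lowest at 3.74 ± 0.94 FPKM, with 47.0% of genes below it. With the knockout label Calr3 stood at 16.8 ± 3.57 FPKM and Tpst2 at 5.52 ± 0.77 FPKM, so that these genes changed places in the order. Tex101 (464 ± 25.4 FPKM) and Lypd4 (466 ± 46.0 FPKM) then overlapped.

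**Figure D3:**
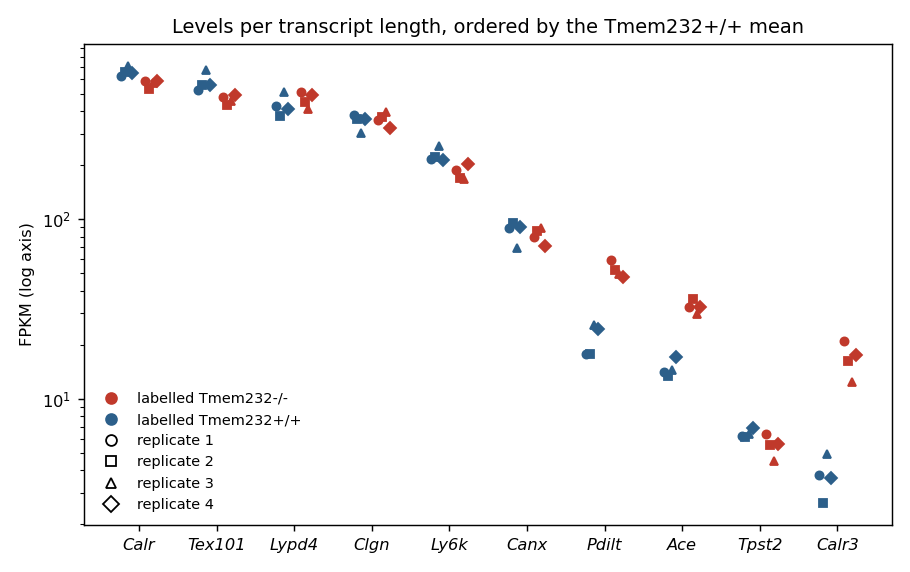
The FPKM of every library is plotted on a log axis for the 10 genes, ordered by the Tmem232+/+ mean, with blue for libraries labelled Tmem232+/+ and red for Tmem232-/-. The span runs from Calr at 663 FPKM to Calr3 at 3.74 FPKM, and the 3 genes that rose are among the 4 lowest.

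Ratios of 2 genes within a library do not depend on how libraries are scaled, and 7 were computed, each with a two-sided exact permutation test over 70 arrangements and Benjamini-Hochberg adjustment over the 7. The smallest p this test can give is 0.029, which 4 of the 7 ratios reached. Their adjusted p was 0.050, at the threshold and not under it. Calr3 and Pdilt were set against genes that did not pass in edgeR. The ratios with Calr3 or Pdilt thus largely restate the rise of these genes and are not separate evidence of it. The log2 ratio of Calr3 to Calr counts was -7.75 ± 0.34 with the wild-type label and -5.36 ± 0.31 with the knockout label (SD, n = 4 each; exact p = 0.029, adjusted p = 0.050). As a share of the FPKM of Calr3 and Calr together, Calr3 went from 0.56 ± 0.12% to 2.85 ± 0.56%, so that the general form made up nearly all of the pair under either label. Clgn made up 80.4 ± 1.02% of Clgn and Canx together with the wild-type label and 81.6 ± 0.40% with the knockout label (exact permutation p = 0.17 on the log2 ratio, adjusted p = 0.20). In whole testis RNA the testis-specific form was thus the main one in the calnexin pair and the minor one in the calreticulin pair. The shares within a single cell type were not measured.

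The testis-specific forms were also set against each other and against the isomerase of the cycle. The log2 ratio of Calr3 to Clgn was higher by 2.16 with the knockout label, or 4.46-fold (exact permutation p = 0.029, adjusted p = 0.050). Pdilt against Pdia3, the general disulfide isomerase of the lectin cycle, was higher by 1.32 on the log2 scale, with the same exact p, and Pdia3 itself had a log2 fold change of 0.02 (SE 0.06, adjusted p = 0.90 in edgeR). The share of Pdilt in the FPKM of both was 6.90 ± 1.16% with the wild-type label and 15.5 ± 1.20% with the knockout label.

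Tpst2 against Tpst1, the other tyrosine sulfotransferase, differed by -0.19, within overlapping ranges (exact permutation p = 0.14, adjusted p = 0.20).

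The ratio of Tex101 to Ly6k overlapped between the groups. Its mean on the log2 scale was 1.91 ± 0.07 with the knockout label and 1.90 ± 0.06 with the wild-type label (SD, n = 4 each; exact permutation p = 0.86). Against Lypd4, in contrast, Tex101 was lower with the knockout label by 0.44 on the log2 scale, from 0.33 ± 0.11 to -0.11 ± 0.11 (exact permutation p = 0.029, adjusted p = 0.050). No library labelled Tmem232-/- reached the lowest ratio of the other group.

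**Figure D4:**
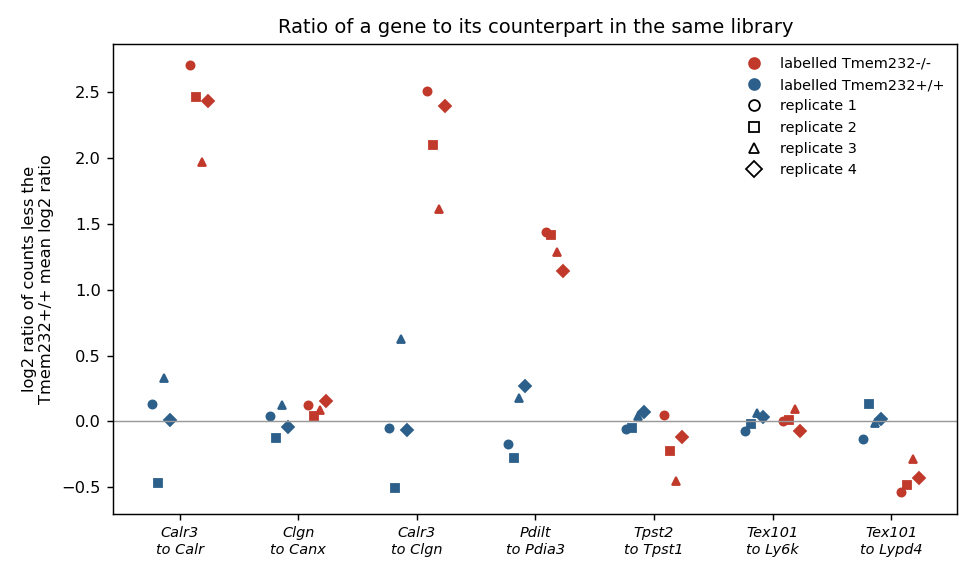
For 7 pairs of genes the log2 ratio of counts in each library is plotted after subtraction of the mean Tmem232+/+ log2 ratio of that pair, with blue for Tmem232+/+ and red for Tmem232-/-. Calr3 to Calr, Calr3 to Clgn and Pdilt to Pdia3 lie higher with the knockout label, Tex101 to Lypd4 lies lower, and the other 3 pairs overlap.

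The genes of the client proteins were examined next. Adam3 encodes the protein whose surface form depends on these factors. Its RNA was measured at 775, 869.6, 870.0 and 743 CPM in the libraries labelled Tmem232-/-. In those labelled Tmem232+/+ it was at 771, 676, 648 and 705 CPM. The ranges overlapped, and the log2 fold change of 0.22 did not pass the test (SE 0.08, adjusted p = 0.12 in edgeR), although it passed in 3 of 18 alternative fits. Adam2 (fertilin beta, 449 ± 37.7 CPM against 439.7 ± 38.8 CPM; log2 fold change 0.03, adjusted p = 0.85) and Adam1b (0.06, adjusted p = 0.67) did not pass in edgeR either. With 1 library left out Adam1b ran from 0.03 to 0.16. Adam1a, whose product pairs with ADAM2 in the ER, was called higher, at 60.8 ± 8.0 CPM against 25.0 ± 5.37 CPM (log2 fold change 1.28, SE 0.15, adjusted p = 0.000127 in edgeR). Of the 8 ADAM genes listed 4 were called higher and none lower, beside 10.3% and 1.46% of all tested genes, with a median log2 fold change of 0.75. The others called were Adam6a (2.26), Adam4 (2.20) and Adam6b (2.13), and Adam6a and Adam6b are close copies whose reads may have been exchanged.

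Other genes needed for sperm to enter the oviduct were listed beside them. Of 5 tested, Prss37 (log2 fold change 3.45) and Prss55 (2.39), which encode serine protease-like proteins, were called higher, beside 10.3% of all tested genes. Prss37 went from 3.43 ± 2.12 CPM to 37.3 ± 10.7 CPM (adjusted p = 6e-05 in edgeR). The other 3, Cmtm2a (0.14), Cmtm2b (0.05) and Pgap1 (0.25, also an anchor-remodelling gene of the GPI list), did not pass. Pmis2 was not analysed here.

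The general ER folding machinery, which all cells use, was listed for comparison. Of 25 tested chaperones, isomerases and glycan-trimming enzymes none was called higher and 4 were called lower, beside 10.3% and 1.46% of all tested genes, and the median log2 fold change was -0.13. Pdia5 (-0.34, adjusted p = 0.026 in edgeR), Prkcsh (the glucosidase II beta subunit, -0.22, adjusted p = 0.034) and Pdia6 (-0.21, adjusted p = 0.045) were the largest. The fourth was Hspa5 (BiP, the main ER Hsp70), named after its value was seen, at 829 ± 13.2 CPM against 952 ± 30.4 CPM (-0.20, adjusted p = 0.048). These calls were near the threshold, and their number ran from 0 to 5 over 18 alternative fits.

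For the anchor that Tex101, Ly6k and Lypd4 carry, 26 genes of GPI synthesis and transfer were tested. Pigf (log2 fold change 0.48) and Pigg (0.35), which act in adding ethanolamine phosphate to the glycan, were called higher, and Gpaa1 (-0.28), a subunit of the transamidase that attaches the anchor, was called lower. The other 23 did not pass, and the median was -0.08. With 2 of 26 called higher and 1 lower, the share called higher was under the 10.3% of all tested genes, and 1.46% of all were called lower. Over the alternatives the number called higher ran from 0 to 4 and lower from 0 to 1.

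Among the other LY6-family genes, 17 of 30 in the table had enough counts to be tested. Ly6g6c rose from 1.59 ± 1.06 CPM to 6.86 ± 1.10 CPM (log2 fold change 2.11, adjusted p = 0.00122 in edgeR). Spaca4, a LY6 protein of the acrosome, rose from 18.7 ± 5.01 CPM to 37.8 ± 7.06 CPM (1.01, adjusted p = 0.00338). Cd59b, which restrains complement, was also called higher (1.00, adjusted p = 0.023), but the call was lost in 5 of 18 alternative fits, 4 of them with 1 library left out. None was called lower, and the median of the 17 was -0.20, while 10.3% of all tested genes were called higher and 1.46% lower.

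The partners of Tpst2 and Ace completed the lists. None of 6 genes of tyrosine sulfation passed in either direction (median log2 fold change -0.13), and Tpst1 was at 0.01. Of 11 genes of the angiotensin system and its peptidases, Ace3 (1.20, adjusted p = 9e-05 in edgeR), an ACE-family gene, and Mmel1 (0.89, adjusted p = 0.000112), a neprilysin-like peptidase of the testis, were called higher, beside 10.3% of all tested genes, and the median was -0.09. Ace3 was measured at 59.0 ± 8.57 CPM against 25.7 ± 4.13 CPM, without overlap.

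**Figure D5:**
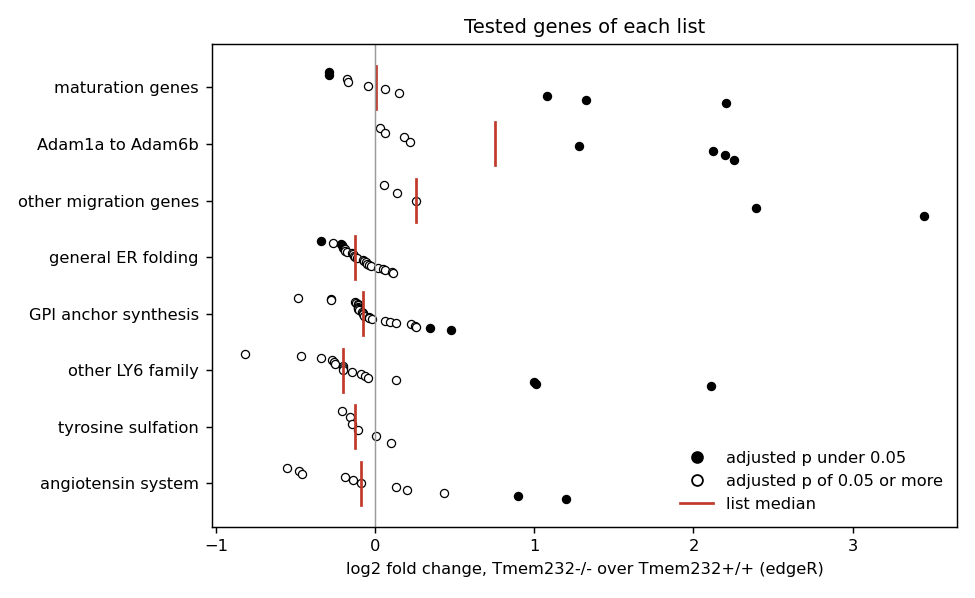
Each point is the log2 fold change (Tmem232-/- over Tmem232+/+, edgeR) of 1 tested gene, grouped by list, filled where the adjusted p was under 0.05, with the list median as a red line. The ER folding list is narrow, from -0.34 to 0.11, while the 8 ADAM genes run from 0.03 to 2.26.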

How the data were processed

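Total RNA of whole testes from 8 mice was sequenced as TruSeq libraries. Per the labels, the authors' processing named GRCm38.p6, HISAT, Bowtie2, StringTie, featureCounts and DESeq2. The deposited table holds 1 estimated count per gene and library, which is not normalized. Between 10.7% and 11.2% of genes per library have a count that is not whole (tolerance 0.001), and these were rounded. It also holds FPKM, which the authors scaled by transcript length and library. The log2 fold change and the p-value and q-value columns deposited by the authors hold their own comparison and were not used.

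Genes were filtered with filterByExpr, normalized with TMM and tested with edgeR 4.0.16 (R 4.3.3) at an adjusted p of 0.05. The SE given with an edgeR log2 fold change was derived from the test. It is the absolute log2 fold change divided by the square root of the F statistic. Alternatives were DESeq2 1.42.0, limma-voom and limma on log2(FPKM + 1) or log2(FPKM + 0.1) (limma 3.58.1), other size factors, other filters (none, or at least 10 counts in every library), omission of the 10 most abundant genes, FPKM in the ratios, a replicate block and each library left out. Exact permutation tests used scipy 1.17.1. The scripts were tested on simulated data. Mice in a group are separate animals, and depth was similar in all libraries.

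The 10 genes described and the gene lists around them were chosen with earlier results of these data known. Genes named are Tmem232, those 10, Adam1a, Adam1b, Adam2, Adam3, the counterparts in the ratios and, in each list, up to 3 genes with the largest change among those called. Hspa5, Cmtm2a, Cmtm2b, Pgap1 and the cell type markers given by name stand outside this rule and were named after their values were seen. Acsm5, Gm37518, Gm11651 and Gm17189, which share exon bases with some of the 10 genes, and Pmis2 also stand outside this rule. A gene of the lists is not reported here, and the ratio planned with it does not enter the 7 ratios given or their adjustment.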

Additional observations from a re-analysis of the deposited data

Results flagged for a closer look

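Of 56 groups of 4 values tested with Dixon's test, 3 held a library far from the others, and chance gives about 2.8. All 3 were Tmem232+/+ replicate 3, which was at 1238 CPM for Calr, at 278 CPM for Canx and at 585 CPM for Tex101. Its gap to the nearest library was 0.894 of the group's range for Calr, 0.858 for Canx and 0.908 for Tex101.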

How the results depend on the processing

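Calr3, Pdilt and Ace were called higher by at least 2-fold under all 18 alternatives, so that 3 of the 10 genes were called higher throughout. The number called lower was 2, but 0 with DESeq2 size factors in edgeR, with no filter on low counts and with the replicate block, 1 with at least 10 counts in every library, and 0 to 1 when 1 library was left out. Tex101 was called in 6 of 18 alternatives (log2 fold change -0.32 to -0.18, adjusted p from 0.031 to 0.14) and Ly6k in 8 of 18 (-0.33 to -0.20, adjusted p from 0.030 to 0.14). Calr was called in none (-0.21 to -0.11, adjusted p from 0.051 to 0.32). The cause was not tested.

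Directions turned only for values near 0. With 1 library left out Canx ran from -0.112 to 0.042, Adam2 from -0.011 to 0.116, Pdia3 from -0.012 to 0.071 and Tpst1 from -0.018 to 0.072. On FPKM with a pseudocount of 1 or 0.1 and with library size alone Adam2 was at -0.003 and Pdia3 at -0.019, and Tpst1 was at -0.033, -0.034 and -0.028. The median over all tested genes ran from -0.09 to -0.01 over the settings. Same-numbered libraries did not deviate together (r from -0.33 to 0.07, beside -0.32 to 0.39 for other pairs). These few values, centred within each group, cannot decide whether the numbers pair the mice, and the labels do not say. With the replicate block 3 of the 10 genes were called higher and 0 lower.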
